A study of Homo sapiens with 4 samples.

Results

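The genes described are 6 matrix metalloproteinases (MMP1, MMP2, MMP3, MMP10, MMP14 and MMP16), 3 tissue inhibitors of metalloproteinases (TIMP1, TIMP2 and TIMP3) and RECK, a membrane-anchored inhibitor. They were taken by gene symbol from deposited expression values, and all 10 were found among 26255 listed genes. The cells were MRC5, fibroblasts from human fetal lung, with the genotype label WT and the cell type label normal. Messenger RNA was sequenced from 2 libraries whose treatment label is "no" (control) and from 2 whose treatment label is miRs, that is, microRNAs delivered by transfection, all with 48 h in their titles. The series title speaks of a negative-control microRNA, which the treatment label of the controls does not mention, and no label names the microRNAs. Whether the 2 libraries of a group stem from separate cultures is not in the labels. The p-values below thus measure the spread between libraries, which may be technical. Pairs of values are always given with replicate 1 first.

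Matrix metalloproteinases are zinc proteases that cut collagens, proteoglycans and other matrix and surface proteins. Most are secreted or displayed as inactive precursors whose prodomain must be removed. TIMPs block them by filling the active site, and RECK holds several of them in check at the cell surface. In lung fibroblasts MMP2 and MMP14 are typical constitutive members, while MMP1 and MMP3 are known for their induction by cytokines and growth factors. The data are levels of messenger RNA, so neither protein nor protease activity was measured.

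TIMP2 and RECK had the largest differences among these genes: their mean levels were 4.09-fold and 4.78-fold lower in miRs than in control. Neither miRs library reached the lower control for TIMP1 and MMP2, whose means were 1.70-fold and 1.46-fold lower. MMP1 was higher in both miRs libraries, 2.12-fold in the means, and TIMP3 1.33-fold. MMP3, MMP10, MMP14 and MMP16 had overlapping groups. None of the 10 genes passed the threshold of 0.05 on the adjusted p of limma, a linear model fitted to all 11860 genes that averaged 1 FPKM or more over the libraries (FPKM is a count of sequenced fragments divided by transcript length and library size). Over all genes 29 passed (0.245%).

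The design with 2 libraries a group gives that fit 2 residual degrees of freedom, and the count of members has to be read against a broad background. Of the 10 members 3 (MMP1, TIMP2 and RECK) had an unadjusted p under 0.05, as did 24.2% of all tested genes. In 6 of the 10 both miRs libraries lay on 1 side of both controls, against 59.5% of all tested genes. Of these 6, 2 were higher in miRs (29.5% of all genes) and 4 lower (30.0% of all genes). Both shares of non-overlap are thus close to the background. The median log2 difference was 0.02 over the members and −0.002 over all tested genes.

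**Figure D1:**
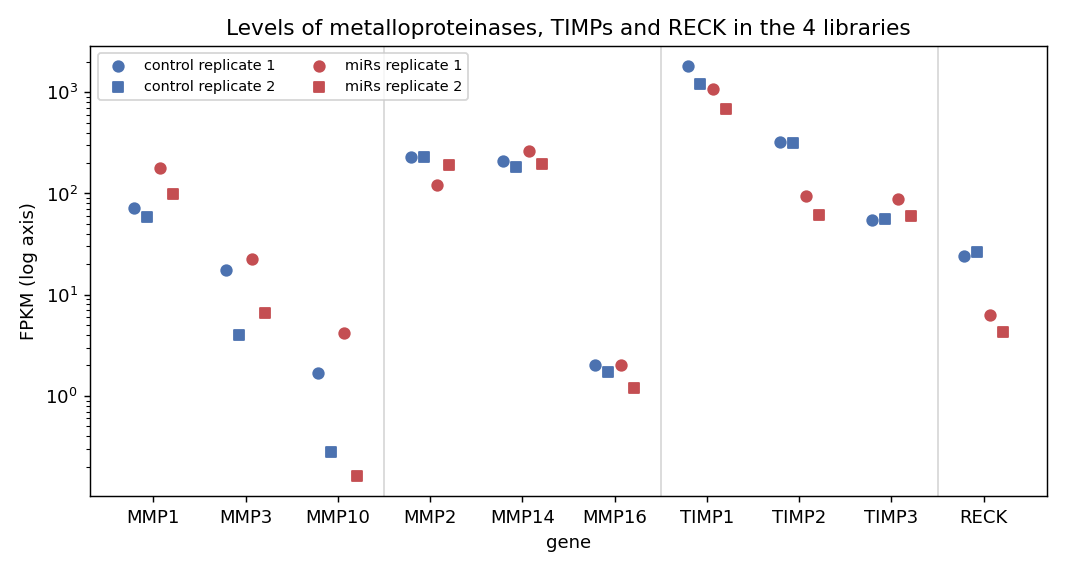
FPKM on a log axis of each gene in each library. Blue marks are the control libraries and red marks the miRs libraries, with circles for replicate 1 and squares for replicate 2. TIMP2 and RECK show the widest gap between the groups, whereas for MMP3 and MMP10 both replicate 1 libraries lie above both replicate 2 libraries.

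Sequencing depth cannot be read from FPKM. Ratios of low values put the FPKM of 1 fragment at between 0.899 and 1.05 times that in control replicate 1. Only ratios near 1 were searched, so a large difference could not have been found, and whether the libraries were scaled alike stays unknown. The miRs libraries differed from each other more than the controls did: 725 genes lay over 2-fold apart between them on the log2(FPKM + 1) scale, against 71 between the controls. For 8 interferon response genes (MX1, ISG15, IFI6, IFIT1, IFIT2, IFIT3, OAS1 and IRF7) the median log2 difference from the control mean came to 7.61 (miRs replicate 1) and 4.83 (miRs replicate 2). Summed over 8 fibroblast markers the level was 6251 and 6904 in the control libraries against 4096 and 9297 FPKM with miRs. The collagens COL1A1 and COL1A2 carried most of that sum, and their groups overlapped, as did those of COL3A1, PDGFRA and PDGFRB. The remaining markers DCN, LUM and THY1 were lower in both miRs libraries than in the controls (log2 differences −1.50, −1.32 and −1.02), as were 30.0% of all tested genes. Epithelial markers, mostly keratins, summed to 28.95 and 31.8 in the control libraries against 186 and 264 FPKM with miRs, with 4 of 6 at a mean of at least 1 FPKM and CDH1, the defining cadherin, at 0.0356 FPKM or listed at 0. Of 5 endothelial markers 4 were under 1 FPKM in every library, with sums of 13.6, 11.02, 13.8 and 5.59 FPKM that come almost wholly from TEK. All 6 markers of macrophages and other blood cells, which can be sources of metalloproteinases, were under 1 FPKM in every library, with sums from 0.0912 to 0.732 FPKM, and ITGAM, CD3E and MS4A1 were listed at 0 throughout. The part of the interferon response, of the keratins and of these fibroblast markers in the results below was not tested.

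TIMP2, an inhibitor that also bridges MMP14 and the precursor of MMP2 at the cell surface, was at 321 and 315 in the control libraries against 95.0 and 60.7 FPKM with miRs. Both miRs libraries lay far below the controls, which differed by little. The means were 318 ± 4.73 FPKM and 77.8 ± 24.2 FPKM (SD, n = 2 each). The log2 difference was −2.05 ± 0.24 (SE; limma adjusted p = 0.0632), and 35 of the 11860 genes, TIMP2 included, had a difference at least as far below 0. In bulk libraries, fewer cells of a type and less RNA per cell cannot be told apart. When miRs replicate 1 was left out the adjusted p of TIMP2 was 0.00426, and without miRs replicate 2 it was 0.00245. In such a fit the lone miRs library is assumed to vary like the controls, and 1653 and 3746 genes of all those tested passed. Without a control library it was 0.489 or more.

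RECK, whose protein is tethered to the membrane by a lipid anchor and restrains MMP2, MMP9 and MMP14, was at 24.2 and 26.3 in the control libraries against 6.31 and 4.26 FPKM with miRs. The means were 25.3 ± 1.501 FPKM and 5.29 ± 1.45 FPKM (SD, n = 2 each), the groups far apart for their spread. RECK had a log2 difference of −2.08 ± 0.20 (SE) and an adjusted p of 0.0618 in limma, and ranked 45 among all tested genes by p. The adjusted p was 0.00710 without miRs replicate 1, 0.00409 without miRs replicate 2 and 0.469 or more without a control library. RECK and TIMP2 thus had similar log2 differences, and both were lower in miRs replicate 2 than in miRs replicate 1.

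MicroRNAs act mostly through short matches between bases 2 to 8 of the microRNA, the seed, and the 3′ untranslated region of a messenger RNA. As no label names the microRNAs, 4 families were searched for in the longest 3′ untranslated region that GENCODE 29 gives each gene. They were chosen after the values were seen, because RECK is a known target of the miR-21 and miR-200 families, TIMP3 of miR-21 and miR-221, and the miR-302 family, whose seed miR-372 shares, is known for its use in reprogramming fibroblasts. The mature microRNAs, from RefSeq (GRCh38.p14), are shown with the seed in capitals:
hsa-miR-200b-3p: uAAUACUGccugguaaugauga
hsa-miR-302a-3p: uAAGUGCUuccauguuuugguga
hsa-miR-21-5p: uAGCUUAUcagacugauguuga
hsa-miR-221-3p: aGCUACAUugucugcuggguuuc

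The reverse complement of the miR-200b seed, CAGTATT, occurred 2 times in RECK, 2 times in MMP16 and 1 time in TIMP2. It was in 19.4% of the 10800 tested genes with a 3′ untranslated region. The stretches of RECK and TIMP2 are shown, and those of MMP16 are not. The 7 letters are in capitals in these stretches, named by the first base of the match counted from the base after the stop codon:
RECK, base 126 of 1406: tattcgccacaCAGTATTtttttttttaa
RECK, base 1207 of 1406: aagtattttttCAGTATTatatgtaccct
TIMP2, base 2673 of 2690: tggacaataaaCAGTATTatcaaagagaa

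The miR-302a and miR-372 match, AGCACTT, was found 1 time in TIMP2 and 1 time in TIMP3, the latter at a higher level in both miRs libraries, and in 25.2% of the tested genes:
TIMP2, base 323 of 2690: gccaagcaggcAGCACTTagggatctccc
TIMP3, base 112 of 3666: cttgcaaatttAGCACTTggaacatttaa

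The miR-21 match, ATAAGCT (9.88% of tested genes), was present 1 time in RECK and 2 times in TIMP3, and the miR-221 and miR-222 match, ATGTAGC (9.43%), 1 time each in RECK, TIMP3 and MMP1. MMP2, MMP3, MMP10, MMP14 and TIMP1 held none of the 4 matches, and MMP16, with an untranslated region of 9452 bases, held 2 for miR-200b/c and 2 for miR-21. By family, the miR-200b match was in RECK and TIMP2, both lower, and in MMP16, whose groups overlapped. The miR-302a match was in TIMP2 (lower) and TIMP3 (higher). The miR-21 match was in RECK (lower), TIMP3 (higher) and MMP16. The miR-221 match was in RECK (lower), TIMP3 and MMP1 (both higher). MMP2 and TIMP1 were also lower and held none. Whether a match bears on these levels was not tested. A match of 7 letters is a description and not a shown site, and long regions hold more of them by length alone.

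TIMP1, a secreted inhibitor induced by cytokines and the most abundant of the 10 genes, was at 1802 and 1199 in the control libraries against 1088 and 681 FPKM with miRs. The highest miRs value lay just under the lowest control value, and within each group replicate 1 was the higher library by 1.503-fold and 1.60-fold. The log2 difference was −0.77 ± 0.32 (SE; limma adjusted p = 0.233). It was −0.43 without miRs replicate 2, −0.48 without control replicate 1 and −1.11 without miRs replicate 1 (adjusted p = 0.265, 0.790 and 0.0677). TIMP3, which binds to the matrix and also inhibits ADAM proteases, was at 55.1 and 55.5 in the control libraries against 88.1 and 59.3 FPKM with miRs. Its higher mean in miRs rests mainly on miRs replicate 1 (log2 difference 0.38 ± 0.22, adjusted p = 0.349 in limma). The log2 difference of TIMP3 was 0.66 without miRs replicate 2 (adjusted p = 0.0151) and 0.10 without miRs replicate 1 (adjusted p = 0.468). In these libraries TIMP2 was thus much lower, TIMP1 lower and TIMP3 at or above its control level, and the difference between the 3 genes was not tested.

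Among the proteases, MMP1, the interstitial collagenase that cleaves fibrillar collagen, was at 71.97 and 58.4 in the control libraries against 177 and 98.7 FPKM with miRs. Both miRs libraries were higher, and they were 1.80-fold apart. The means were 65.2 ± 9.62 FPKM and 138 ± 55.5 FPKM (SD, n = 2 each), with a log2 difference of 1.02 ± 0.32 (SE), a p of 0.0265 and an adjusted p of 0.158 in limma. Without miRs replicate 2 the log2 difference was 1.44, and without miRs replicate 1 it was 0.60. Leaving out control replicate 1 or 2 gave 1.17 and 0.87.

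The stromelysins MMP3 and MMP10, which cut proteoglycans and can activate other metalloproteinase precursors, differed between libraries of 1 group more than between the groups. MMP3 was at 17.6 and 3.98 in the control libraries against 22.7 and 6.58 FPKM with miRs. MMP10 was at 1.69 and 0.277 in the control libraries against 4.17 and 0.162 FPKM with miRs. In both genes the replicate 1 library was the higher one in each group, 4.42-fold and 3.46-fold for MMP3. The log2 differences were 0.48 ± 0.84 for MMP3 (adjusted p = 0.752) and 0.40 ± 0.81 for MMP10 (adjusted p = 0.788, both in limma). Both changed sign when control replicate 2 was left out, to −0.47 and −0.13, and when miRs replicate 1 was left out, to −0.34 and −0.67.

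MMP10, MMP1 and MMP3 are direct neighbours on chromosome 11, in a row of 9 metalloproteinase genes (MMP7, MMP20, MMP27, MMP8, MMP10, MMP1, MMP3, MMP12 and MMP13 in RefSeq's GRCh38.p14). The other 6 were low: MMP7, MMP8, MMP20 and MMP27 were listed at 0 in all 4 libraries and MMP12 did not exceed 0.221 FPKM. MMP13, a second collagenase, was listed at 0 in the control libraries, with 1.17 and 0.167 FPKM in miRs replicates 1 and 2. MMP3 and MMP10 are close paralogs, and 2.95% of the 50-base words of MMP3 transcripts also occur in MMP10 (3.36% of those of MMP10 in MMP3), so a small part of their fragments could be assigned to either. The pseudogene WTAPP1, which shares exon bases with MMP1 and MMP3 on the opposite strand, did not exceed 0.0303 FPKM. Other listed genes that overlap a member (SYN1 with TIMP1, SYN3 with TIMP3, CEP295NL with TIMP2) stayed at or under 0.524 FPKM.

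MMP2, the gelatinase that degrades denatured and basement membrane collagen, was at 228 and 229.8 in the control libraries against 122 and 192 FPKM with miRs. Both miRs libraries were lower, and miRs replicate 1 was the lowest. The log2 difference was −0.58 ± 0.24 (SE; limma adjusted p = 0.240). Without miRs replicate 2 it was −0.90, and without miRs replicate 1 it was −0.25. Leaving out control replicate 1 or 2 gave −0.58 and −0.57. MMP2 and MMP1 were thus furthest from control in the same library, in opposite directions.

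The membrane-bound MMP14, which activates the MMP2 precursor, was at 207 and 185 in the control libraries against 262 and 194 FPKM with miRs, and the groups overlapped (log2 difference 0.20 ± 0.19, adjusted p = 0.549 in limma). MMP16, another membrane-bound member, was low at 2.04 and 1.73 in the control libraries against 2.02 and 1.20 FPKM with miRs (log2 difference −0.16 ± 0.23, adjusted p = 0.693 in limma). Neither gave a difference larger than the spread between libraries. The sign turned for MMP14 without miRs replicate 1 (−0.012) and for MMP16 without miRs replicate 2 (0.07).

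**Figure D2:**
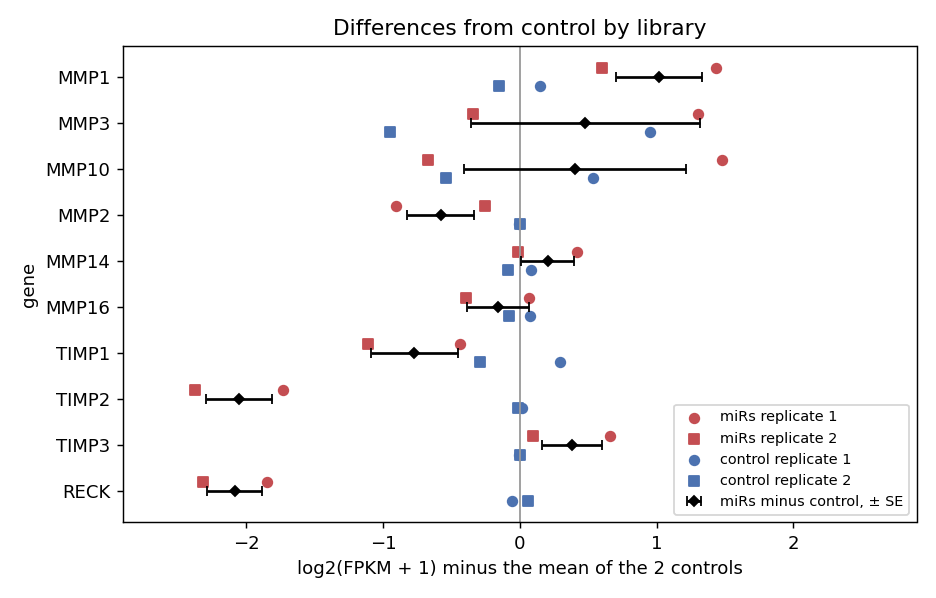
Difference of log2(FPKM + 1) from the mean of the 2 controls for each gene. Circles and squares are single libraries (red miRs, blue control), and black diamonds with bars give the limma difference of miRs minus control ± SE. TIMP2 and RECK lie near −2 in both miRs libraries, and the bars of MMP3, MMP10 and MMP16 cross 0.

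The order of mean levels changed most for TIMP2, from rank 2 in control to rank 5 in miRs. FPKM is scaled to transcript length, so levels of different genes can be compared, though only roughly. In control the order by mean FPKM was TIMP1, TIMP2, MMP2, MMP14, MMP1, TIMP3, RECK, MMP3, MMP16 and MMP10, and no neighbours in this order overlapped between the 2 libraries. In miRs MMP14 (228 FPKM), MMP2 (157 FPKM) and MMP1 (138 FPKM) stood after TIMP1 (884 FPKM), and TIMP2 came next. The range of TIMP2 in miRs, 60.7 to 95.0 FPKM, overlapped that of TIMP3, 59.3 to 88.1 FPKM. RECK, seventh in control, was eighth in miRs behind MMP3, and in the means MMP10 and MMP16 changed places.

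The summed level of the 6 metalloproteinases was 529 and 479 in the control libraries against 590 and 492 FPKM with miRs. Those sums overlapped. The 3 TIMPs summed to 2178 and 1569 in the control libraries against 1271 and 801 FPKM with miRs, lower in both miRs libraries. The ratio of the sums was 0.243 and 0.305 in control and 0.464 and 0.615 in miRs. TIMP1 made up 76.4% to 85.6% of the TIMP sum in every library, so this ratio follows TIMP1. Without TIMP1 it was 1.40 and 1.29 in control and 3.22 and 4.10 in miRs. Within the protease sum MMP1 took 13.6% and 12.2% in control and 30.02% and 20.04% in miRs, while MMP2 took 43.2% and 48% in control and 20.7% and 39.0% in miRs.

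Ratios within a library do not depend on how the libraries were scaled. These pairs were chosen after the values were seen and are given without a test, since an exact permutation test of 2 against 2 libraries cannot go below p = 0.333. MMP14 over TIMP2, the pair that assembles on the membrane, was 0.645 and 0.587 in control and 2.76 and 3.20 in miRs replicates 1 and 2. By FPKM, TIMP2 exceeded MMP14 in both controls and was under it in both miRs libraries. MMP2 over TIMP2 was 0.710 and 0.731 in control and 1.28 and 3.16 in miRs, less alike between the miRs libraries. TIMP3 over TIMP2 was 0.172 and 0.176 in control and 0.928 and 0.978 in miRs, close within each group. MMP14 over RECK was 8.56 and 7.01 in control and 41.5 and 45.5 in miRs. MMP1 over TIMP1 was 0.0399 and 0.0487 in control and 0.163 and 0.145 in miRs, similar in the 2 miRs libraries although each gene alone differed between them.

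**Figure D3:**
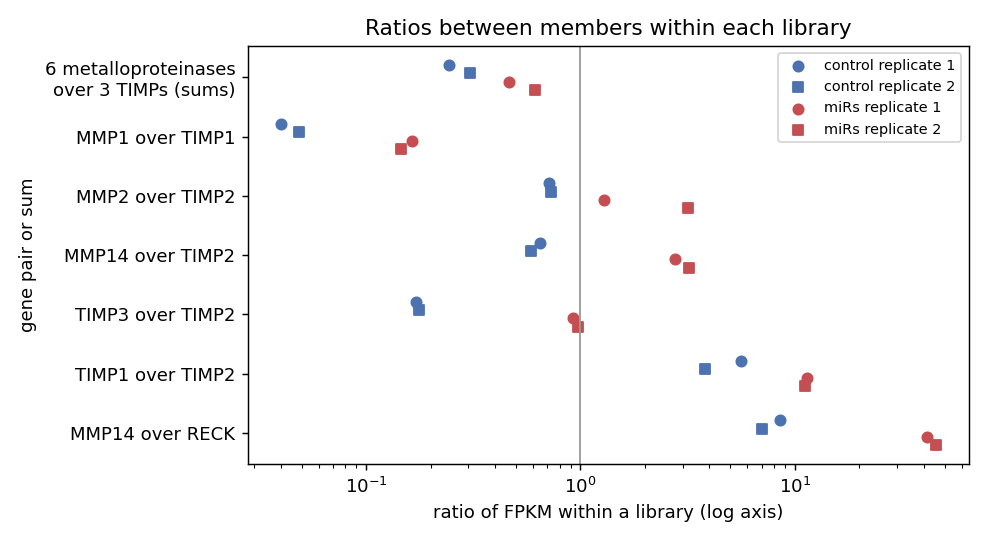
Ratio of FPKM between members within each library, on a log axis, with marks as in the plot of levels and a grey line at 1. The control and miRs libraries are apart in every ratio shown, but the pairs were chosen after the values were seen and several contain TIMP2. The miRs libraries lie closest together for TIMP1 over TIMP2 (11.4 and 11.2) and TIMP3 over TIMP2.

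Other genes of the pathway were read from lists of the same fit, and no listed gene passed over all genes tested. Of 18 further genes, the other metalloproteinases and TIMP4, 4 reached the expression minimum. MMP11, a stromelysin-type protease of stromal cells, was at 4.31 and 5.61 in the control libraries against 1.004 and 1.60 FPKM with miRs (log2 difference −1.38, adjusted p = 0.0794 in limma). TIMP4, the least abundant TIMP, was at 0.976 and 1.63 in the control libraries against 2.42 and 4.53 FPKM with miRs (log2 difference 0.93, adjusted p = 0.171). MMP19 and MMP17 had overlapping groups, with 10.8 to 17.8 FPKM and 2.08 to 4.07 FPKM over the libraries. MMP23B, under the minimum, was at 0.0791 and 0.415 in the control libraries against 0.498 and 1.14 FPKM with miRs.

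In the plasminogen system, whose product plasmin cleaves several metalloproteinase precursors, 9 of 11 genes were tested, and 2 were higher in miRs with no overlap (29.5% of all genes). SERPINB2, an inhibitor of plasminogen activators, was at 14.3 and 15.1 in the control libraries against 118 and 57.2 FPKM with miRs (log2 difference 2.41, adjusted p = 0.0731 in limma). SERPINE2, at 66.4 and 34.9 against 139 and 72.2 FPKM, was higher in miRs (adjusted p = 0.244). The activators PLAU and PLAT and the receptor PLAUR had overlapping groups. The list's median log2 difference was 0.22, or −0.18 without miRs replicate 1.

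The proprotein convertases FURIN and PCSK7, which can remove the prodomain of membrane-bound metalloproteinases, were both slightly lower in miRs (log2 differences −0.19 and −0.27, adjusted p = 0.458 and 0.312 in limma). Of 10 tested ADAM and ADAMTS proteases, relatives of which TIMP3 can inhibit several, 4 were higher and 5 lower in miRs with no overlap (29.5% and 30.0% of all genes). ADAM8, 1 of the 4, averaged 0.426 FPKM in control and reached the expression minimum only through miRs (4.98 and 1.58 FPKM). The median log2 difference of the list was 0.05, from −0.097 to 0.13 when a library was left out. ADAMTS1 was at 189.6 and 148 in the control libraries against 47.6 and 46.5 FPKM with miRs (−1.81, adjusted p = 0.0596). ADAM9 was at 213 and 209 against 123 and 116 FPKM (adjusted p = 0.0729), and ADAM12 at 3.03 and 1.82 against 6.64 and 9.16 FPKM (adjusted p = 0.0877).

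Of 11 tested genes for other inhibitors, docking partners and uptake receptors of metalloproteinases, 10 had a lower mean log2 level in miRs. In 7 of them both miRs libraries lay below both controls (30.0% of all genes). The median log2 difference was −0.57, and −0.66 to −0.47 when a library was left out, against −0.002 over all tested genes. THBS1, a matrix protein that can bind MMP2 for uptake, was at 410 and 385 in the control libraries against 97.6 and 140 FPKM with miRs (−1.75, adjusted p = 0.0632 in limma). ITGB3, the integrin subunit that docks MMP2 with ITGAV, was at 8.61 and 6.27 against 2.28 and 0.880 FPKM (adjusted p = 0.0880), and CAV1, the caveolin, at 552 and 483 against 356 and 340 FPKM (adjusted p = 0.110). TFPI2 alone had a higher mean log2 level in miRs, with overlapping groups.

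Transcription factors of the AP-1 and ETS families bind metalloproteinase promoters. Of 10 tested, 3 were higher and 1 lower in miRs with no overlap (29.5% and 30.0% of all genes), and the median log2 difference was 0.03, from −0.015 to 0.39 when a library was left out. ETS1 was at 20.9 and 22.2 in the control libraries against 40.5 and 42.6 FPKM with miRs (0.91, adjusted p = 0.0674 in limma). JUN was at 47.4 and 43.3 against 71.2 and 61.9 FPKM (adjusted p = 0.124), and JUNB at 23.4 and 23.2 against 17.2 and 15.7 FPKM (adjusted p = 0.129). RefSeq's promoter table (GRCh38.p14, 300 bases a gene) held 5 of the 10 members, MMP10, MMP14, RECK, TIMP1 and TIMP3. The AP-1 motif TGACTCA, sought on both strands, was in none of the 5 and in 4.96% of all promoters. Only these exact letters were sought, so variants of the motif are not covered, and MMP1 and MMP3 were not among the 5. The ETS motif AGGAAG was in TIMP1 (33.7% of all, both strands) and the TATA box TATAAA in MMP10 (7.37% of all, on the gene's strand). The response element of interferon genes, sought on both strands as GAAA, any pair of bases and GAAA again, was in none of the 5 (3.57% of all).

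Among 17 cytokines, growth factors and receptors known to act on metalloproteinase genes, 10 were tested, 5 higher and 2 lower in miRs with no overlap, against 29.5% and 30.0% of all genes (median log2 difference 0.23, and 0.07 without miRs replicate 1). Of the 5, PDGFB averaged 0.449 FPKM in control and reached the expression minimum only through miRs (0.711 and 2.63 FPKM). LIF was at 20.6 and 19.4 in the control libraries against 5.76 and 7.23 FPKM with miRs (−1.49, adjusted p = 0.0632 in limma). The interleukin-1 receptor IL1R1 was at 9.87 and 11.4 against 19.3 and 21.2 FPKM (0.87, adjusted p = 0.0809), and IL6 at 3.01 and 3.25 against 26.9 and 6.18 FPKM (adjusted p = 0.202). IL1A, IL1B, TNF and OSM did not exceed 0.520 FPKM in any library.

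The matrix proteins that these enzymes cut were mixed. Of 15 substrates tested, 4 were higher and 6 lower in miRs with no overlap (29.5% and 30.0% of all genes), with a median log2 difference of −0.07. The proteoglycan DCN was at 963 and 1223 in the control libraries against 352 and 419 FPKM with miRs (−1.50, adjusted p = 0.0632 in limma). The basement membrane collagen COL4A2 was at 363 and 325 against 202 and 212 FPKM (adjusted p = 0.0863), and elastin, ELN, at 9.39 and 10.9 against 20.1 and 33.9 FPKM (adjusted p = 0.0975). Without miRs replicate 1 the median of this list was 0.50.

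**Figure D4:**
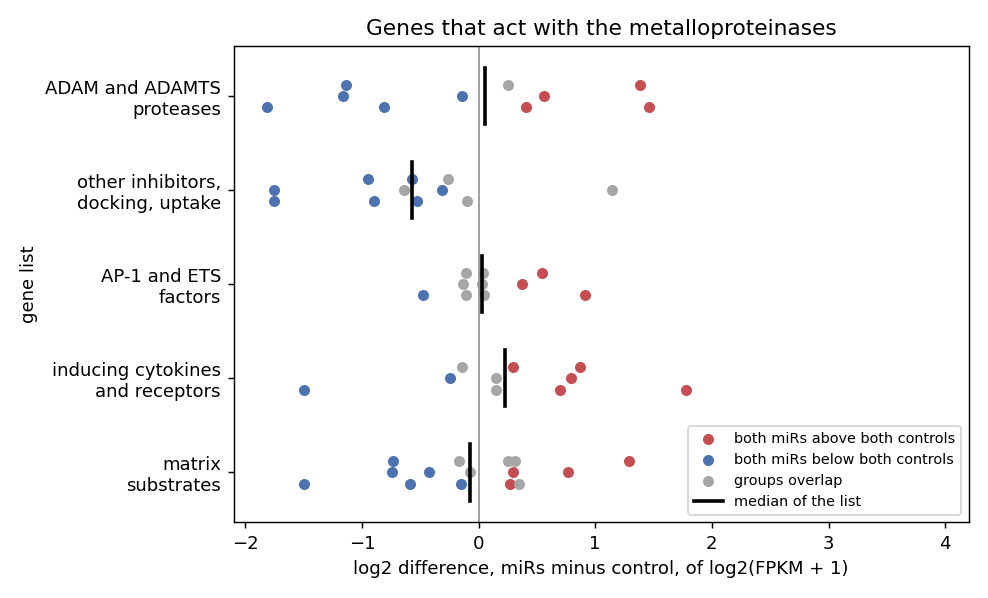
Log2 difference, miRs minus control, of the tested genes in 5 lists, 1 dot per gene. Red dots are genes with both miRs libraries above both controls, blue dots the reverse and grey dots genes whose groups overlap, and black lines mark the medians. In the list of other inhibitors, docking and uptake, 10 of 11 genes lie left of 0, and the median over all tested genes was −0.002.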

How the data were processed

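The deposited files give 1 FPKM value per gene symbol and library, a unit the authors named in the file headers. Build hg19, Cuffdiff 2.2.1, TopHat2 2.1.1 with Bowtie2 2.2.8, and SAMtools 0.1.18 are listed per the submitters' processing notes. For annotation, strand setting and library scaling, the step is not given in the sources used here. FPKM is not a count and its steps depend on gene length, so reads were not recovered and depth is unknown. The 4 files were joined on symbol. Only genes averaging 1 FPKM or more over the 4 libraries were fitted with limma 3.58.1 (R 4.3.3) on log2(FPKM + 1), with variance following mean expression, 2-sided, Benjamini-Hochberg adjusted over all tested genes at 0.05. This scale understates the change of low genes. A gene low in control could reach the minimum through the miRs libraries alone, or the reverse. The script was tested on simulated data. Each library was left out in turn, and the fit was repeated with the replicate number as a block, with other scalings, without the trend, with a pseudocount of 0.1 and with an expression minimum of 5 FPKM or none. All 10 members are named. In each list the 3 genes with the smallest p are named, and other metalloproteinases at 1 FPKM or more in a library. One gene of these is not reported here. Further names were chosen after their values were seen. Members and lists were chosen with earlier results of these data known. GENCODE 29 and RefSeq use GRCh38, so they served only for sequences and neighbours.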

Additional observations from a re-analysis of the deposited data

How the results depend on the processing

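TIMP2 and RECK were lower and MMP1 and TIMP3 higher under all 11 alternatives, with ranges of −2.37 to −1.73 (log2) for TIMP2, −2.32 to −1.84 for RECK, 0.60 to 1.44 for MMP1 and 0.10 to 0.66 for TIMP3. MMP2 and TIMP1 also kept their sign. Over these alternatives the adjusted p ranged from 0.00245 to 0.522 for TIMP2 and from 0.00409 to 0.476 for RECK. When a library was left out, differences ranged from −0.469 to 1.43 for MMP3, −0.672 to 1.48 for MMP10, −0.012 to 0.42 for MMP14 and −0.391 to 0.0703 for MMP16, and the count of members that passed from 0 to 5. Over all genes the count was 0 with no minimum FPKM (3338 at an unadjusted p under 0.05), 6 with quantile normalization and 0 to 3746 with a library left out. With the replicate number as a block, 99 genes and 2 members passed, RECK and TIMP2, both at an adjusted p of 0.0468. Across genes, the difference between replicates 1 and 2 in control correlated with that in miRs at r = 0.20, over 2 pairs. The labels do not say whether a number marks a shared culture, so whether the replicates are paired is not known. The fold of the summed ratio, 1.97, was 2.60 without MMP14 and TIMP1 and 2.71 without TIMP1. The cause of these changes was not tested. The FPKM of low genes such as MMP10 rests on few fragments.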
